A study of Mus musculus with 2 samples.

Results

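Rab genes encode small GTPases that switch between a GTP-bound state on membranes and a GDP-bound state, and each marks particular organelles. The set holds the 59 protein-coding genes of the mouse RefSeq annotation whose symbol is Rab followed by a number and an optional letter, of 21887 protein-coding genes on nuclear chromosomes. CUT&RUN, in which an antibody tethers a nuclease to chromatin and the released DNA is sequenced, was applied to adult wild-type mice, on nuclei of the hypothalamic paraventricular nucleus (PVN). An antibody against Otp, a homeodomain transcription factor of this nucleus, was compared with IgG, an antibody without a target, with 1 library each. The cell type label reads neurons, but the labelled protocol homogenises tissue and spins nuclei through sucrose and describes no neuron sort. No treatment is labelled in either group, and the labels state neither the number, the sex nor the strain of the mice.

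Rab proteins recruit effectors that tether, move and fuse vesicles. Activators load them with GTP, GTPase-activating proteins switch them off, and GDI returns them to the cytosol. Rab3 and Rab27 act on secretory vesicles, which in the PVN carry peptides such as vasopressin and oxytocin as well as transmitters. Rab5, Rab4, Rab11, Rab7 and Rab9 act on early, recycling and late endosomes, and Rab1, Rab2 and Rab6 between endoplasmic reticulum and Golgi.

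Each library came as a list of regions enriched over the peak caller's own background, with a summit, a fold enrichment and a −log10 q as the authors' caller gave them. The Otp list held 11379 regions and the IgG list 291. The tags (reads or fragments) piled up at a summit were worked out from the deposited values, and their 95% Poisson intervals cover counting error only, since PCR copies are not independent molecules. Total depth is unknown. The caller's background could be worked out only at called regions, from the same deposited values. The lowest value that regions shared was 0.512 tags for Otp and 0.0873 tags for IgG. It was taken as the genome background of each library, which was not measured directly. Each group is 1 library, so differences could not be checked against replicates or tested. A pileup from bulk nuclei cannot tell more bound nuclei from more tags per nucleus. Of 6 genes that mark this nucleus, an Otp region lay at Sim1, Trh and Pou3f2, and none lay at Avp, Oxt or Crh (3 of 6, 50%, 95% exact binomial interval 11.8 to 88.2%), against 22.6% of all genes in the same length deciles.

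Promoter sequences show where the summits lay. The RefSeq table (GRCm38.p6, the assembly of mm10) listed a start for 48 of the 59 genes. It has no entry for Rab18, Rab26, Rab27b, Rab2a, Rab30, Rab36, Rab37, Rab38, Rab44, Rab4a and Rab7b. The 4 promoters below belong to the genes with the highest pileup in their role among those whose summit fell in the 250 bases before the start. Each is printed 5′ to 3′ on the gene's strand, ending at the base before the start. Capitals mark CCAAT or its reverse complement ATTGG, a motif that recurred in these genes. The summit lay at base 150 in Rab22a (chr2:173659595-173659844, + strand), 116 in Rab8a (chr8:72160950-72161199, + strand), 107 in Rab6a (chr7:100607336-100607585, + strand) and 167 in Rab3a (chr8:70754453-70754702, + strand), counted from the first base shown.
Rab22a: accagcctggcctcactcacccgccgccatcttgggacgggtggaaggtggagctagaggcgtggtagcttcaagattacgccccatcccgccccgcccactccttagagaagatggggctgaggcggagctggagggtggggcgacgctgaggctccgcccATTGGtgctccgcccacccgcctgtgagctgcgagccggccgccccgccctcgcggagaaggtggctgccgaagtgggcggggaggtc
Rab8a: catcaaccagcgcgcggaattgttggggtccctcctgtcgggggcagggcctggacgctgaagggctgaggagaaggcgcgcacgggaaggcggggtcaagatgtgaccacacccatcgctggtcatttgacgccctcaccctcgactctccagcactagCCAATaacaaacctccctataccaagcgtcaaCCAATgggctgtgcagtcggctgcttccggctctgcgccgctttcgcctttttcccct
Rab6a: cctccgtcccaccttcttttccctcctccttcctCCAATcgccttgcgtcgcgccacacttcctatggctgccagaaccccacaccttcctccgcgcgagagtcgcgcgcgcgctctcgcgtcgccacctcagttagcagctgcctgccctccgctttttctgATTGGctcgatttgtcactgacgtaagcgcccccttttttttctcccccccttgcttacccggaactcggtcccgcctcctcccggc
Rab3a: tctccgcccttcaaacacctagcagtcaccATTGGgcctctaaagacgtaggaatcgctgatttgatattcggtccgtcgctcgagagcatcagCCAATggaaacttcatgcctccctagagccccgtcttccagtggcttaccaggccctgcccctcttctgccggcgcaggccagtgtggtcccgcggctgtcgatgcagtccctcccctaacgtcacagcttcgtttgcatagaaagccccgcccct

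The next 4 promoters belong to close relatives without a region at either end. The motif is absent from 3 of them and present in Rab11a, and Rab31 and Rab9b, also without a region, hold it too. Rab6b (chr9:103111824-103112073, + strand) is the paralog of Rab6a, and Rab3b (chr4:108878820-108879069, + strand) that of Rab3a. Rab27a (chr9:73044560-73044809, + strand) is the other secretory type, and Rab11a (chr9:64737757-64738006, - strand) is the paralog of Rab11b.
Rab6b: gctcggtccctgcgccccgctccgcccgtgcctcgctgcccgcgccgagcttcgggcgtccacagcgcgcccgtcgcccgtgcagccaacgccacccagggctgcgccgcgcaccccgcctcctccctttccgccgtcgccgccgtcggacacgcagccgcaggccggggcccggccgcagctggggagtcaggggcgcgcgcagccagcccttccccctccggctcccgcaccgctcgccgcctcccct
Rab3b: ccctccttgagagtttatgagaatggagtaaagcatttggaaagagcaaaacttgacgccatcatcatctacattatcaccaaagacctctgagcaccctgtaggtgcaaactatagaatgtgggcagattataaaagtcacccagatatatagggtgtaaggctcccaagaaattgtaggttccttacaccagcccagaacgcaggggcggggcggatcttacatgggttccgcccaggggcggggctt
Rab27a: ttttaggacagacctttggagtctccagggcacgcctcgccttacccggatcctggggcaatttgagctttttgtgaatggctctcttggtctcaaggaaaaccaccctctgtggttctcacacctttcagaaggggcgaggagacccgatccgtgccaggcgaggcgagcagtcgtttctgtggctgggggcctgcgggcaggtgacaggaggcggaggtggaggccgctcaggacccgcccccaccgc
Rab11a: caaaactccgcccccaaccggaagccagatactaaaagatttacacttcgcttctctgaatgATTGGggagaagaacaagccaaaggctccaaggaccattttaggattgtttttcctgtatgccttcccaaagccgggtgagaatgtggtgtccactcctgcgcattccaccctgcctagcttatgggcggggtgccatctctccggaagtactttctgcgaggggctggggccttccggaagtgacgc

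Otp regions lay at the ends of a majority of Rab genes. The summit of a region lay within 1 kb of either end of 33 of the 59 Rab genes (55.9%, 95% exact binomial interval 42.4 to 68.8%), against 27.2% of all protein-coding genes. Rab genes are of middling length, with a median of 23.2 kb against 17.2 kb, and the shortest genes seldom have a region. Among all genes in the length deciles that the members occupy, weighted by the members in each, the share was 31.2%, which would make 18.4 of 59 genes. In the sixth decile of length (17.2 to 24.6 kb), 9 of 12 Rab genes had a region, against 32.9% of all genes there. In the seventh (24.6 to 35.8 kb) it was 6 of 12, against 35.2%. The IgG list had a region at an end of 1 Rab gene, Rab3a, against 0.379% of all protein-coding genes.

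**Figure D1:**
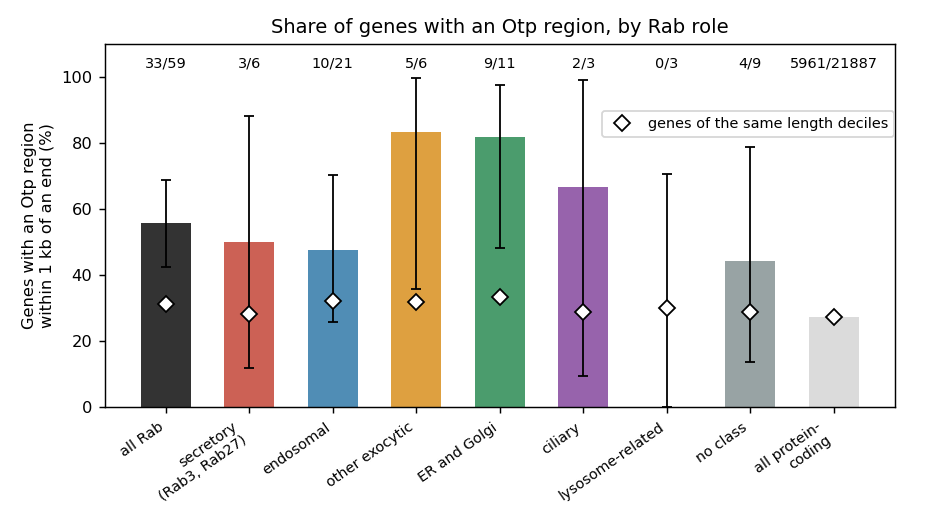
Share of genes (%) with an Otp region within 1 kb of an end, for all Rab genes, each role and all protein-coding genes; bars are shares, lines 95% exact binomial intervals, diamonds the share over all genes of the same length deciles, and numbers above are genes with a region over genes. ER and Golgi (81.8%) and other exocytic genes (83.3%) stand highest, and lysosome-related genes are at 0 of 3.

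Regions at the ends of secretory genes lay at Rab3 genes only, though not at all of them. Of the 6 genes, 3 had an Otp region (50%, 11.8 to 88.2%), all of them Rab3 genes, against 28.3% of genes in the same length deciles. Rab3a, the main Rab of synaptic vesicles, had 24 tags (15.4 to 35.7) and a fold enrichment of 8.52 at chromosome 8, positions 70754449 to 70754681, with the summit 84 bp from the gene's lower end. Rab3c, another neuronal vesicle Rab, had 17 tags (9.90 to 27.2) and 6.98-fold. Rab3d, known from secretory granules of exocrine cells, had 12 tags (6.20 to 21.0) and 6.63-fold. These 3 regions had overlapping intervals. Rab3b, Rab27a and Rab27b had none at an end. Rab27a held a region of 16 tags and 7.87-fold inside the gene, and within 5 kb of an end both Rab27a and Rab3b would count.

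Rab3a was also the single Rab gene with signal in the control list. The IgG region covered positions 70754490 to 70754564, inside the Otp region. Its summit was at 70754498, while the Otp summit was at 70754619, outside the IgG region. The tags compared here were therefore read at different positions. The IgG region was 6.81-fold enriched and had 7 tags (2.81 to 14.4). Scaled by the ratio of the genome backgrounds, the 24 Otp tags correspond to 4.09 IgG tags, and to 7.33 with the median ratio measured where the lists share a region. Both values lie within the interval of the 7 IgG tags. The second ratio comes only from places where IgG also had a region, so it cannot show whether Otp exceeds IgG. By the background ratio, an excess of Otp over IgG at Rab3a was not detectable at this depth. Without Otp regions that overlap an IgG region, 2 of 6 secretory genes and 32 of 59 Rab genes had a region. At this setting the share was 26.9% of all protein-coding genes, and 30.8% in the length deciles of the 59 Rab genes.

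The endosomal genes had a region in 10 of 21 (47.6%, 25.7 to 70.2%), against 32.3% of genes in the same length deciles. The secretory share lay within this interval and the endosomal share within the secretory one, and the difference was not tested. The pileups ran from 10 to 51 tags with a median of 24.5 over the 10 endosomal genes with a region. Over the 3 secretory genes with one they ran from 12 to 24 tags with a median of 17, so the ranges cover unequal numbers of genes. These medians cover genes whose regions had passed the caller's threshold.

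At the early endosome, 4 of 7 genes had a region, against 33.2% of genes in the same length deciles. All 3 Rab5 genes, which drive fusion of early endosomes, had one. Rab5b had 51 tags (38.0 to 67.1) and a fold enrichment of 15.5 (chromosome 10, positions 128696221 to 128696677), above the 19 tags of Rab5c (11.4 to 29.7) and the 18 tags of Rab5a (10.7 to 28.4), whose intervals do not reach that of Rab5b. The Rab5b region also lay 649 bp from an end of Pmel. Rab22a, a Rab of early and recycling endosomes, had the highest fold enrichment of all Rab genes, 19.0, with 48 tags (35.4 to 63.6) at chromosome 2, positions 173659535 to 173659845. Rab20, Rab21 and Rab31 had none at an end.

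Among recycling genes, 4 of 10 had a region (40%), against 31.6% in the same length deciles. Rab11b, of the recycling endosome, had 47 tags (34.5 to 62.5) and 14.8-fold, with its summit 68 bp inside the gene (chromosome 17, positions 33760342 to 33760693). Its close relative Rab11a had none, and the nearest Otp summit lay 73507 bp from either end. Rab4b, of rapid recycling, had 39 tags (27.7 to 53.3) and a second region of 16 tags, whereas Rab4a had 10 tags (4.80 to 18.4). Rab14, which acts between Golgi and endosomes, had 30 tags (20.2 to 42.8). Rab12, Rab15, Rab17, Rab25 and Rab35 had none.

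At the late endosome 2 of 4 genes had a region, against 32.4%. Rab7, needed for fusion with lysosomes, had 12 tags (6.20 to 21.0) and 6.29-fold. Rab9, of transport from late endosomes to the Golgi, had 10 tags (4.80 to 18.4) and 7.28-fold. Rab7b and Rab9b had none. With the endosomal list restricted to the Rab4, Rab5, Rab7, Rab9 and Rab11 genes, leaving out Rab7b, 8 of 10 had a region (80.0%, 44.4 to 97.5%), against 32.4% in the same length deciles. Rab7b has no region, so leaving it out raised this share.

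**Figure D2:**
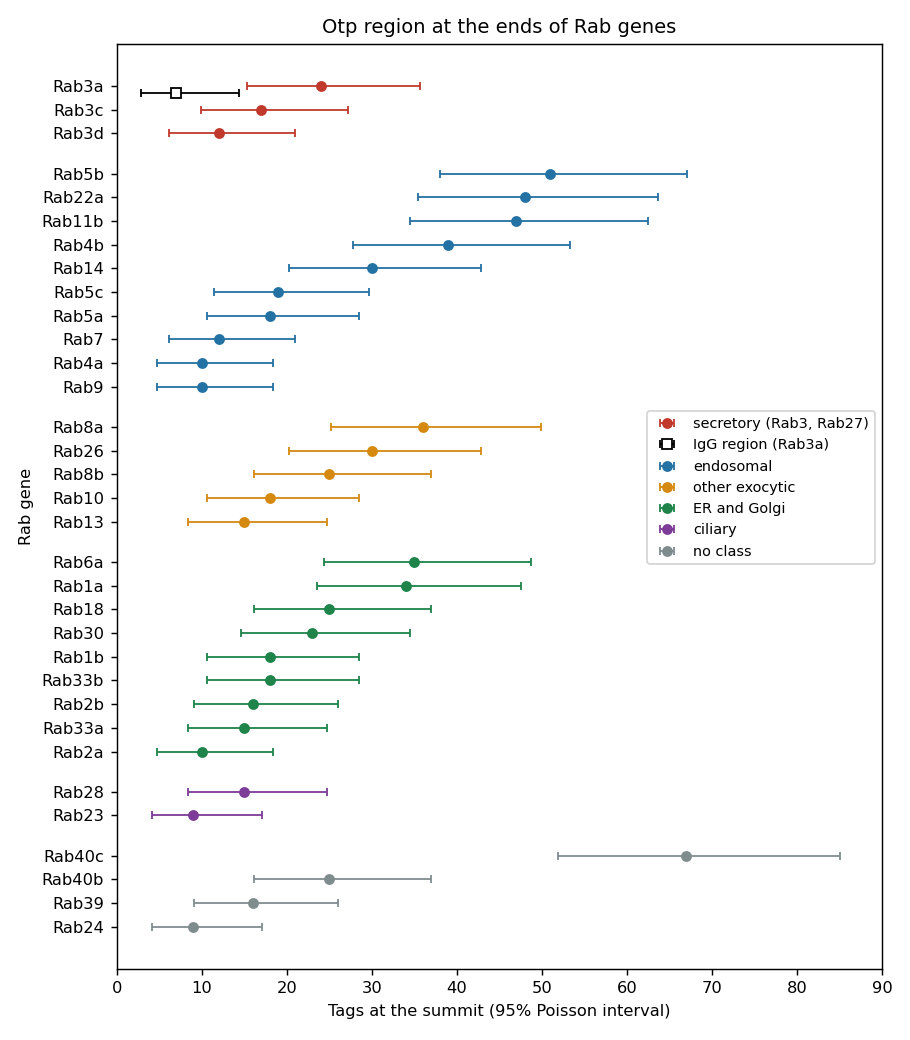
Otp tags at the summit of the strongest region at each of the 33 Rab genes with one, by role; points are tags, lines 95% Poisson intervals, and the open square is the single IgG region. Rab40c has 67 tags and Rab5b, Rab22a and Rab11b 47 to 51, while Rab24 and Rab23 have 9.

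In the ER and Golgi list 9 of 11 had a region (81.8%, 48.2 to 97.7%), against 33.3% in the same length deciles. Rab6a, of retrograde Golgi transport, had 35 tags (24.4 to 48.7) and 11.1-fold, and Rab1a, of transport from ER to Golgi, 34 tags (23.5 to 47.5) and 11.4-fold. Rab18, of ER and lipid droplets, had 25 tags, the Golgi Rab Rab30 had 23, Rab1b and Rab33b 18 each, Rab2b 16, Rab33a 15 and Rab2a 10. Rab6b, the form of Rab6 found mainly in brain, and Rab43 had none. The Rab6a interval overlaps those of Rab1a, Rab18 and Rab30 and lies above that of Rab2a.

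Of the other exocytic genes, 5 of 6 had a region (83.3%, 35.9 to 99.6%), against 31.8%. Rab8a, which carries Golgi vesicles to the plasma membrane and cilium, had 36 tags (25.2 to 49.8) and 11.8-fold at chromosome 8, positions 72160843 to 72161349. Rab8b had 25 tags (16.2 to 36.9), Rab10, known for transporter delivery, 18 tags (10.7 to 28.4) and Rab13, of epithelial junctions, 15 tags (8.40 to 24.7). Rab26, a Rab of secretory granules, had 30 tags (20.2 to 42.8), but its summit lay 960 bp from the gene and 156 bp from Traf7. Rab37 had none. The intervals overlap, except that the one of Rab8a lies just above that of Rab13.

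Of the ciliary genes, Rab28 had a region of 15 tags and another of 13, and Rab23, an inhibitor of Hedgehog signalling, had 9 tags (4.12 to 17.1), while Rab34 had none. The lysosome-related genes Rab29, Rab32 and Rab38 had none (0 of 3, upper bound 70.8%), against 30.1% in the same length deciles. Rab32 and Rab38 work in making melanosomes, and their nearest Otp summits lay 223736 and 912658 bp from an end. Outside these classes, Rab40c had the highest pileup of all Rab genes, 67 tags (51.9 to 85.1) and 15.1-fold at chromosome 17, positions 25919769 to 25920404, with a second region of 21 tags. The Rab40 proteins carry a SOCS box and join ubiquitin ligases. Rab40b had 25 tags, Rab39 16 and Rab24, of autophagy, 9. Rab19, Rab36, Rab39b, Rab42 and Rab44 had none.

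Close relatives did not always share the outcome. Of 14 groups of genes with the same number, 7 had a region at every gene (Rab1, Rab2, Rab4, Rab5, Rab8, Rab33 and Rab40). Rab27 had none, and 6 were mixed (Rab3, Rab6, Rab7, Rab9, Rab11 and Rab39). Of the 31 genes in such groups, 23 had a region (74.2%), against 31.8% of all genes in the same length deciles. Of the 28 genes alone in their number, 10 did (35.7%), near the 30.6% of all genes in their length deciles.

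In tags and fold the regions at Rab genes were near those at other genes, and in width and rank their values were higher. Over the 33 Rab genes with a region, fold enrichment had a median of 8.86 and an interquartile range of 6.98 to 11.1, against 7.83 (6.32 to 10.1) over all 5961 genes with one. The median pileup was 18 tags against 16. The median width was 306 bp against 176 bp. By −log10 q, 78.8% of the Rab regions ranked 5689 or better of 11379, against 65.3% over all genes with a region. Scaled by the genome backgrounds, 14 of the 33 pileups came to 4 IgG tags or more, the smallest pileup among the 262 of 291 IgG regions for which one was found. The other 19 lay below it, so that an IgG signal of the same relative size would not have been listed. By the ratio at shared regions, 26 reached it. Rab40c scaled to 11.4 and 20.5 tags and had no IgG region.

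The summits clustered just before gene starts. Of the 28 Rab genes with both a region and a listed strand, the region lay at the start in 28 and at the far end in 0, against 96.3% at the start over all genes. Relative to the nearest listed start the median summit position was -93 bp, against -78 bp over all genes, and 21 of 28 lay upstream (75%), Rab33a at -5700 bp among them, against 82.0% over all genes. Counting only listed starts, 27 of 48 Rab genes (56.2%) had a region within 1 kb, against 29.5% of all genes with a listed start. Rab33a dropped out, since its listed start is an inner one.

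**Figure D3:**
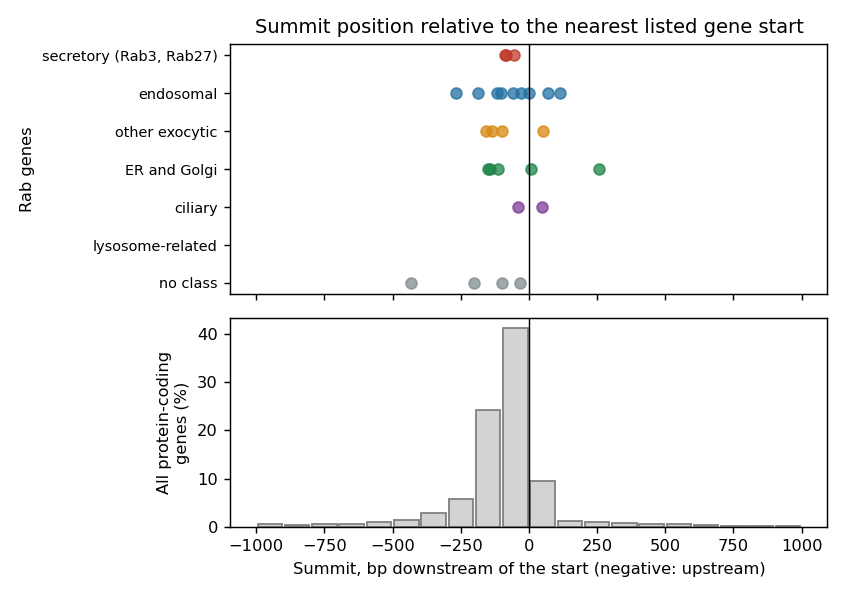
Position of the strongest Otp summit relative to the nearest listed gene start, in bp, negative upstream, for 27 Rab genes by role (points, top) and for all protein-coding genes with a region and a listed start (% of genes per 100 bp bin, bottom). Most points lie within 250 bp upstream of the start, where the bars are also highest; Rab33a falls outside the axis.

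Some regions lay near an end of another gene too. At 9 of the 33 Rab genes (27.3%) the summit was within 1 kb of an end of a different protein-coding gene, against 29.0% over all genes with a region. These were Rab4b, Rab5b, Rab1b, Rab2b, Rab33a, Rab6a, Rab13, Rab26 and Rab24. At Rab26 and at Rab33a, where Aifm1 lay 22 bp away, the other gene was nearer, and counting a region only for its nearest gene left 31 of 59. The window mattered most for the secretory genes, of which 2 of 6 had a region within 500 bp and 5 of 6 within 5 kb. The endosomal genes went from 10 to 11 of 21 and all Rab genes from 31 to 38 of 59. Over all protein-coding genes the share went from 25.1% to 34.4%. Rab26 (960 bp) and Rab3c (702 bp) had the farthest of the strongest regions counted, and Rab3b (2048 bp) and Rab27a (2738 bp) the nearest of those not counted. Inside Rab27a lay 2 regions, of 16 tags (9.15 to 26.0) and 12 tags (6.20 to 21.0), and inside Rab31 another 2 of 9 and 14 tags. Rab3b held 1 of 10 tags.

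Promoters of Rab genes with a region had a higher median CpG content than those without. The ratio of observed to expected CpG in the 250 bases before the outermost listed start had a median of 0.770 (n = 28), against 0.615 in Rab genes without a region (n = 20). Over all protein-coding genes the medians were 0.776 with a region and 0.360 without. Of 32 Rab promoters with a ratio of at least 0.6, 22 had a region (68.8%), against 48.5% of all such promoters. Below it 6 of 16 did (37.5%), against 11.4%. Weighted over deciles of this ratio instead of length, all genes would give 39.4%, against 58.3% (28 of 48) in Rab genes. The part of base composition in the result was not tested.

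**Figure D4:**
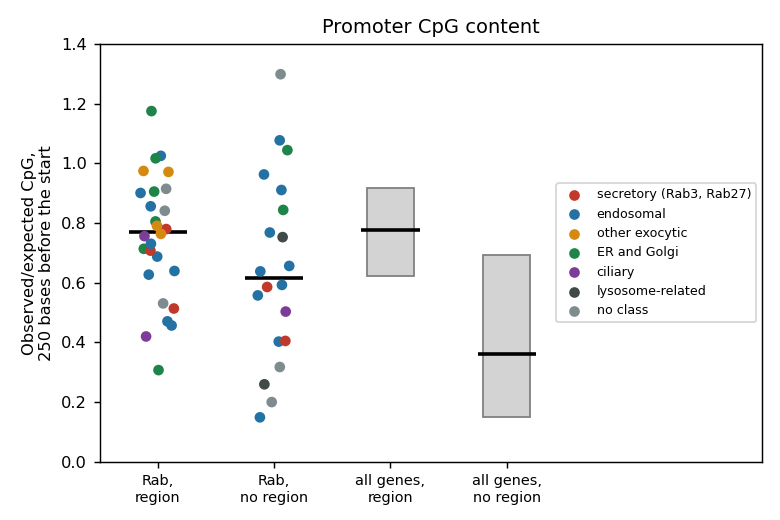
Observed over expected CpG ratio in the 250 bases before the start, for Rab genes with and without an Otp region (points coloured by role, bars medians) and for all protein-coding genes with and without (boxes interquartile range, bars medians). The Rab genes without a region have a median of 0.615, above the 0.360 of all genes without.

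Short motifs were counted on both strands of the same 250 bases. The summit lay within 250 bp upstream of the nearest listed start in 18 of the 28 Rab genes with a region (64.3%), against 69.3% over all genes. The counts therefore do not describe the sequence under every summit. TAATTA, a palindrome that homeodomains are known to bind, was in 0 of 28 Rab promoters with a region and 1 of 20 without (Rab39b), against 2.11% of all promoters with a region and 5.38% without. The shorter TAAT or ATTA, both contained in TAATTA, was in 9 of 28 (32.1%) and 6 of 20 (30.0%), against 38.9% of all promoters with a region and 54.9% without. GGGCGG or CCGCCC, the box bound by Sp factors, was in 20 of 28 (71.4%) and 13 of 20 (65.0%), against 64.7% of all promoters with a region and 34.1% without.

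CCAAT or ATTGG, the box bound by the factor NF-Y, differed more between Rab promoters with and without a region than the other motifs counted. It was in 19 of 28 with a region (67.9%) and 3 of 20 without (15%), namely Rab11a, Rab31 and Rab9b. Over all genes it was in 47.9% with a region and 32.0% without. None of the 35 matches in Rab promoters overlapped TAAT or ATTA. Among promoters with a CpG ratio of at least 0.6, a region was at 16 of 17 Rab genes with the box and 6 of 15 without it (40.0%). Over all such genes the shares were 63.8% with the box and 39.8% without. Below that ratio, a region was at 3 of 5 Rab genes with the box and 3 of 11 without it. Over all genes below it the shares were 15.2% with the box and 9.16% without. In the 14 Rab promoters where both box and summit lay in the 250 bases, the box was 4 to 129 bp from the summit. The median was 38.5 bp, against 30 bp over 1827 genes. It was within 50 bp in 8 of the 14 (57.1%), against 68.8% over those genes. Lying in the same 250 bases by itself keeps this distance short. The box was chosen after the sequences were seen, so these counts are a description, and a match is not a site.

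**Figure D5:**
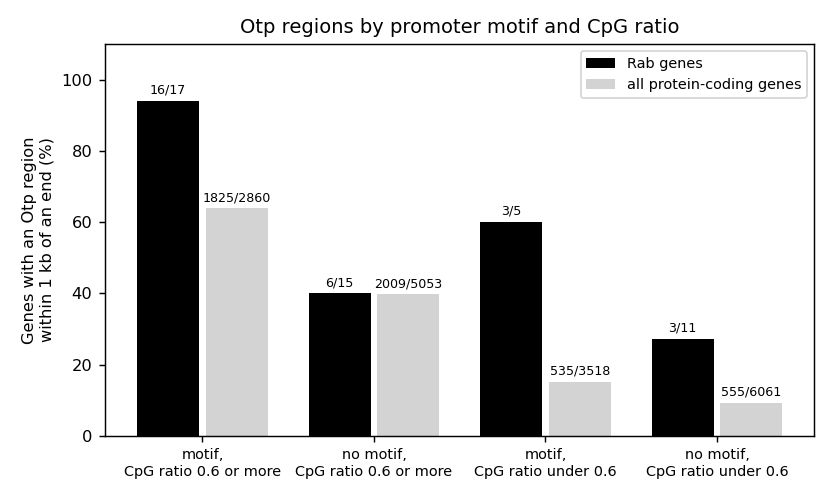
Share of genes (%) with an Otp region within 1 kb of an end, by presence of the CCAAT or ATTGG motif and by the observed over expected CpG ratio of the promoter, for Rab genes (black) and all protein-coding genes (gray); numbers are genes with a region over genes. At a ratio of at least 0.6, Rab genes with the motif stand at 16 of 17 and those without it at 6 of 15. Below that ratio they stand at 3 of 5 and 3 of 11.

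Regulators and effectors of Rab proteins were read in the same way. Of 102 such genes, 40 had a region of the Otp list within 1 kb (39.2%), compared with 31.3% in the same length deciles. Endosomal effectors had one in 11 of 19 (57.9%, 33.5 to 79.7%), against 32.4%, and secretory effectors in 1 of 12 (8.33%, 0.211 to 38.5%), against 30.6%; the difference between these lists was not tested. The endosomal ones were led by the retromer subunit Vps35 at 9.38-fold and 18 tags, whose summit was nearer to Orc6. Next came the Rab5 effector Appl1 at 7.83-fold, the tethering subunit Vps41 at 7.40-fold and the Rab7 effector Osbpl1a at 7.19-fold. The secretory one was Myrip, which links Rab27a to a myosin, with 10 tags and 5.63-fold. Rims1, Rims2, Rph3a and the Sytl genes, effectors of Rab3 and Rab27, had none.

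Of the genes for prenylation and retrieval of Rab proteins, 5 of 8 had a region (62.5%, 24.5 to 91.5%), against 26.1%. These included Gdi2, which extracts Rab proteins from membranes (10.5-fold, 23 tags), the escort protein gene Chm (6.60-fold, 9 tags), Rabac1 (6.24-fold, 16 tags) and Rabif (5.30-fold, 9 tags). Activators had one in 8 of 28 (28.6%), against 31.8%. They included Mon1b of the Rab7 activator (15.1-fold, 67 tags), the Rab8 activator Rab3ip (10.1-fold, 18 tags) and Dennd3 (8.96-fold, 17 tags). Of the GTPase-activating proteins, 15 of 35 did (42.9%), against 31.7%. They were led by Evi5l (17.5-fold, 92 tags), Tbc1d10b (16.4-fold, 83 tags, nearer to Mylpf), Tbc1d15 (10.5-fold, 19 tags) and Tbc1d17 (9.19-fold, 38 tags). None of the 40 genes had an IgG region at an end, which is near the 0.379% of all protein-coding genes that had one.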

How the data were processed

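CUT&RUN libraries of wild-type PVN with an Otp antibody and with IgG, 1 each, were grouped by the antibody label. The submitters' processing notes name the mouse build mm10 and the tools MACS2, Bowtie2, Trimmomatic, SAMtools and Picard, without versions. Settings, and whether a control entered the peak calling, were not given in the sources used here. Fold enrichment (a ratio over the caller's background), −log10 q and −log10 p were used as deposited by the authors, one list per library, with a −log10 q above 2.01 (Otp) and 2.03 (IgG).

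The pileup at a summit was taken as the whole number that, with the deposited fold, returned the −log10 p to within 0.001, provided that no other whole number came within 0.005. It was found for 11182 Otp regions (98.3%) and 262 IgG regions (90.0%). The calculation was tested on simulated data. Genes came from RefSeq GRCm38.p6, which gives gene ends; exons were not used. A region counted for a gene when its summit lay within 1 kb of either end. Regions overlapped from 1 bp. Starts and strands came from a RefSeq promoter table, whose orientation was checked on 766 overlapping pairs of opposite strand. Members, role lists and motifs were chosen with earlier results of these data known. Every Rab gene is named, and of each list of regulators up to 4 genes in order of fold enrichment; a gene of the activators is not reported here. Alternatives were thresholds, windows, gene assignment, overlap with IgG, list membership and length classes. Python 3.11.15, numpy 2.4.6, scipy 1.17.1, pandas 2.3.3 and matplotlib 3.10.9 were used.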

Additional observations from a re-analysis of the deposited data

How the results depend on the processing

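Of 82 values under alternatives, 67 stayed within the bounds set for them. At a −log10 q of at least 10, 20 Rab genes kept a region (33.9%), against 15.7% in the same length deciles. At that threshold 13.4% of all protein-coding genes had a region. The secretory genes with one fell to 1 of 6, Rab3a, and the Rab genes with an IgG region to 0. The regulators and effectors fell to 10 of 102, below the share of all genes. The share in the same length deciles was 27.0% at a −log10 q of at least 5, 29.6% at a fold enrichment of at least 5, 28.9% within 500 bp, 39.2% within 5 kb, 39.6% with gene bodies, 33.8% at listed starts, 27.3% for the nearest gene, and 39.4% over classes of CpG ratio, an alternative chosen after seeing the data. The Rab genes with a region at those first 7 settings numbered 29, 32, 31, 38, 36, 27 of 48, and 31. Secretory genes with a region came to 5 of 6 within 5 kb and 5 of 6 with gene bodies, against 34.4% and 35.3% of all protein-coding genes. Endosomal genes came to 11 of 21 at each of these settings. The secretory genes had a median length of 58.5 kb, against 17.2 kb over all genes. Their share in the same length deciles is not given at these settings, so length is not accounted for. No paired analysis was possible because Otp and IgG have a single library each; for the same reason none could be omitted. Depth limits the comparison with IgG at regions of few tags, since the smallest pileup found for an IgG region was 4 tags.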
